A study of Mus musculus with 36 samples.

Results

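The genes described here build the mitotic spindle, split the dividing cell, condense chromosomes and start anaphase. They are 36 mouse genes chosen by symbol and role, with earlier results of these data known. Probes were matched to them by accession and kept where 3 or all 4 arrays of some group gave a spot well above background. All 36 had such a probe, among 32489 genes tested, and 20 had more than 1 tested probe. By role, 14 act on the spindle and its microtubules, 5 in cytokinesis, and 10 in chromosome condensation or on mitotic chromosomes. Another 6 were grouped under anaphase control and cohesion. Depdc1a was kept apart.

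RNA came from Bhas 42 cells, a fibroblast line derived from BALB/c 3T3 that carries a viral Ha-ras oncogene in every group, controls included, and is used to score cell transformation by promoters. Treatment began on day 4 of culture and lasted 48 h, until RNA was taken on day 6. The amorphous silica NM-203 was given at 1, 2 and 5 µg/cm² and diatomaceous earth (DE) at 5 µg/cm², with 2% water as their control. The crystalline silica Min-U-Sil 5 was given at 20 µg/cm² and had its own 2% water control, while the phorbol ester TPA (0.05 µg/ml) was set against 0.1% DMSO. Each of the 9 groups had 4 arrays, 36 in all. The series speaks of 4 independent experiments, but the labels do not tie replicates to them, so p-values measure the spread between these samples, which may be partly technical.

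In a dividing cell these proteins appear mostly in G2 and mitosis. Microtubule-associated proteins such as Tpx2 and Aspm shape the spindle, condensin complexes with topoisomerase II compact the chromosomes, and the anaphase-promoting complex with Cdc20 then frees separase to cut cohesin. Prc1, Racgap1, Ect2 and Anln set up the cleavage furrow, and Cep55 prepares the final cut. Their transcripts are repressed in resting cells by the DREAM complex and activated in cycling cells by B-Myb, MuvB and Foxm1, and as a group they serve as a readout of proliferation in cultured fibroblasts.

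Levels are log2 of the spot intensity minus the array's 75th percentile, so 0 marks that percentile. They compare one gene across arrays, not different genes. Between 55.1% and 76.2% of probes were well above background on an array, no spot was saturated (0 on every array), and arrays of a group correlated at 0.953 to 0.993. The arrays lay on 5 slides scanned on 2 days. All water and DE arrays were scanned on day 1 and the 2 µg/cm² NM-203 arrays on day 2, and water shares no slide with the latter. Of 10 fibroblast markers, all 10 were well above background on all 4 water arrays. The leukocyte gene Ptprc, the epithelial gene Epcam and the endothelial gene Tek were well above background on 0 arrays of every group, but other markers of these lists were not dark. In every group 6 of 8 macrophage and 2 of 6 epithelial markers were well above background on all 4 arrays, as were 3 of 5 endothelial markers in water and 2 or 3 elsewhere.

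In group means, every member stood above its control after each of the 6 treatments. The members' median log2 change was alike for NM-203 at 1 µg/cm² and DE (0.73 and 0.72). It was larger, and again alike, for NM-203 at 5 µg/cm² and TPA (both 1.92). The median level of the 36 members on the 4 water arrays was 0.49, 0.11, -0.09 and 0.01. It was 1.33, 0.81, 0.60 and 0.54 after NM-203 at 1 µg/cm², 2.23, 1.74, 1.77 and 1.39 at 2 µg/cm², and 2.51, 2.20, 2.54 and 2.40 at 5 µg/cm². After DE it was 1.22, 0.94, 0.72 and 0.98. The groups at 2 and 5 µg/cm² lay wholly above water, as did the lowest dose and DE, although the lowest array of NM-203 at 1 µg/cm² stood at 0.54 and the highest water array at 0.49. With Min-U-Sil 5 the median was 2.06, 2.15, 2.30 and 2.16, against 0.70, 0.54, 0.21 and 0.82 in its water. TPA arrays read 1.90, 1.73, 2.25 and 2.13 and DMSO arrays -0.18, 0.07, 0.09 and 0.09. Neither of these last pairs of groups overlapped. In a bulk extract, more dividing cells and more RNA of these genes per cell cannot be told apart.

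**Figure D1:**
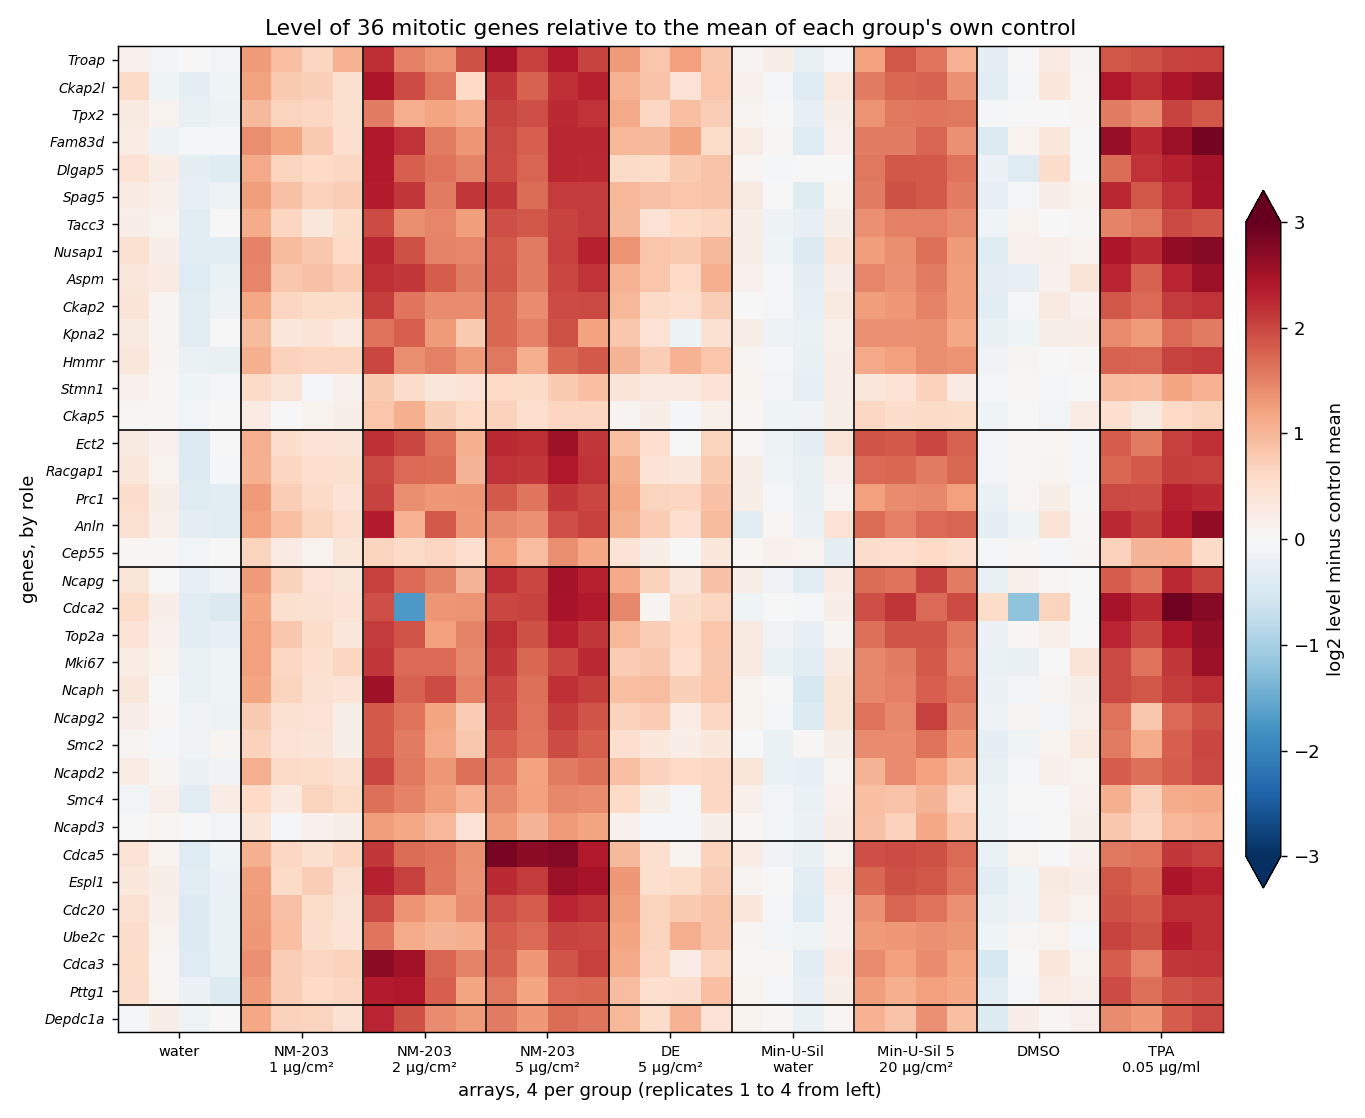
Levels of the 36 genes (rows, by role) on the 36 arrays (columns, 4 per group), as the log2 level minus the mean of the group's own control, from blue (below) to red (above). Red fills the TPA, Min-U-Sil 5 and NM-203 5 µg/cm² columns and is pale for NM-203 1 µg/cm² and DE; Cdca2 is blue on 1 array of NM-203 2 µg/cm².

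Counts of genes follow a limma fit with Benjamini-Hochberg adjustment over all 32489 genes, and a gene rose or fell where its adjusted p was under 0.05. After NM-203 at 5 µg/cm² all 36 members rose, where 14% of all genes tested did so, with a median log2 change of 1.92 (range 0.62 to 2.66) beside 0.01 for all genes. TPA raised all 36 as well, against a background of 4.89%, with a median of 1.92 (0.51 to 2.59). Min-U-Sil 5 raised all 36, against 11.6%, with a median of 1.45 (0.42 to 1.94). NM-203 at 2 µg/cm² raised 35, against 16.2%, with a median of 1.63 (0.52 to 2.11). DE raised 15, against 0.557%, and NM-203 at 1 µg/cm² raised 5, against 0.0431%, with medians of 0.72 and 0.73. No member fell in any of the 6 comparisons. Because the members were chosen with earlier results of these data known, their excess over all genes describes the list and does not test it. Of all genes, 0.0431% fell after NM-203 at 1 µg/cm², 8.86% at 2 and 19.1% at 5 µg/cm², 0.449% after DE, 13.9% after Min-U-Sil 5 and 6.78% after TPA. Calls in either direction made up 0.0862%, 25% and 33.1% at the 3 doses of NM-203, 1.01% after DE, 25.6% after Min-U-Sil 5 and 11.7% after TPA. All 4 treated arrays lay above all 4 controls in 35 members after NM-203 at 2 µg/cm² (14.7% of all genes) and in 36 at 5 µg/cm² (15.9%). The same held for 36 after Min-U-Sil 5 (11.8%), 36 after TPA (7.99%) and 24 after DE (2.59%). Counts rest on the brightest probe of each gene, and 20 members had 27 other tested probes. Of these, 26 shared the direction and 21 the call of the brightest after NM-203 at 2 µg/cm². The numbers were 27 and 21 at 1 µg/cm² and 26 and 20 after DE. All 27 shared both after NM-203 at 5 µg/cm², Min-U-Sil 5 and TPA. NM-203 and DE share the water arrays, so their values are set side by side without a test of their likeness.

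**Figure D2:**
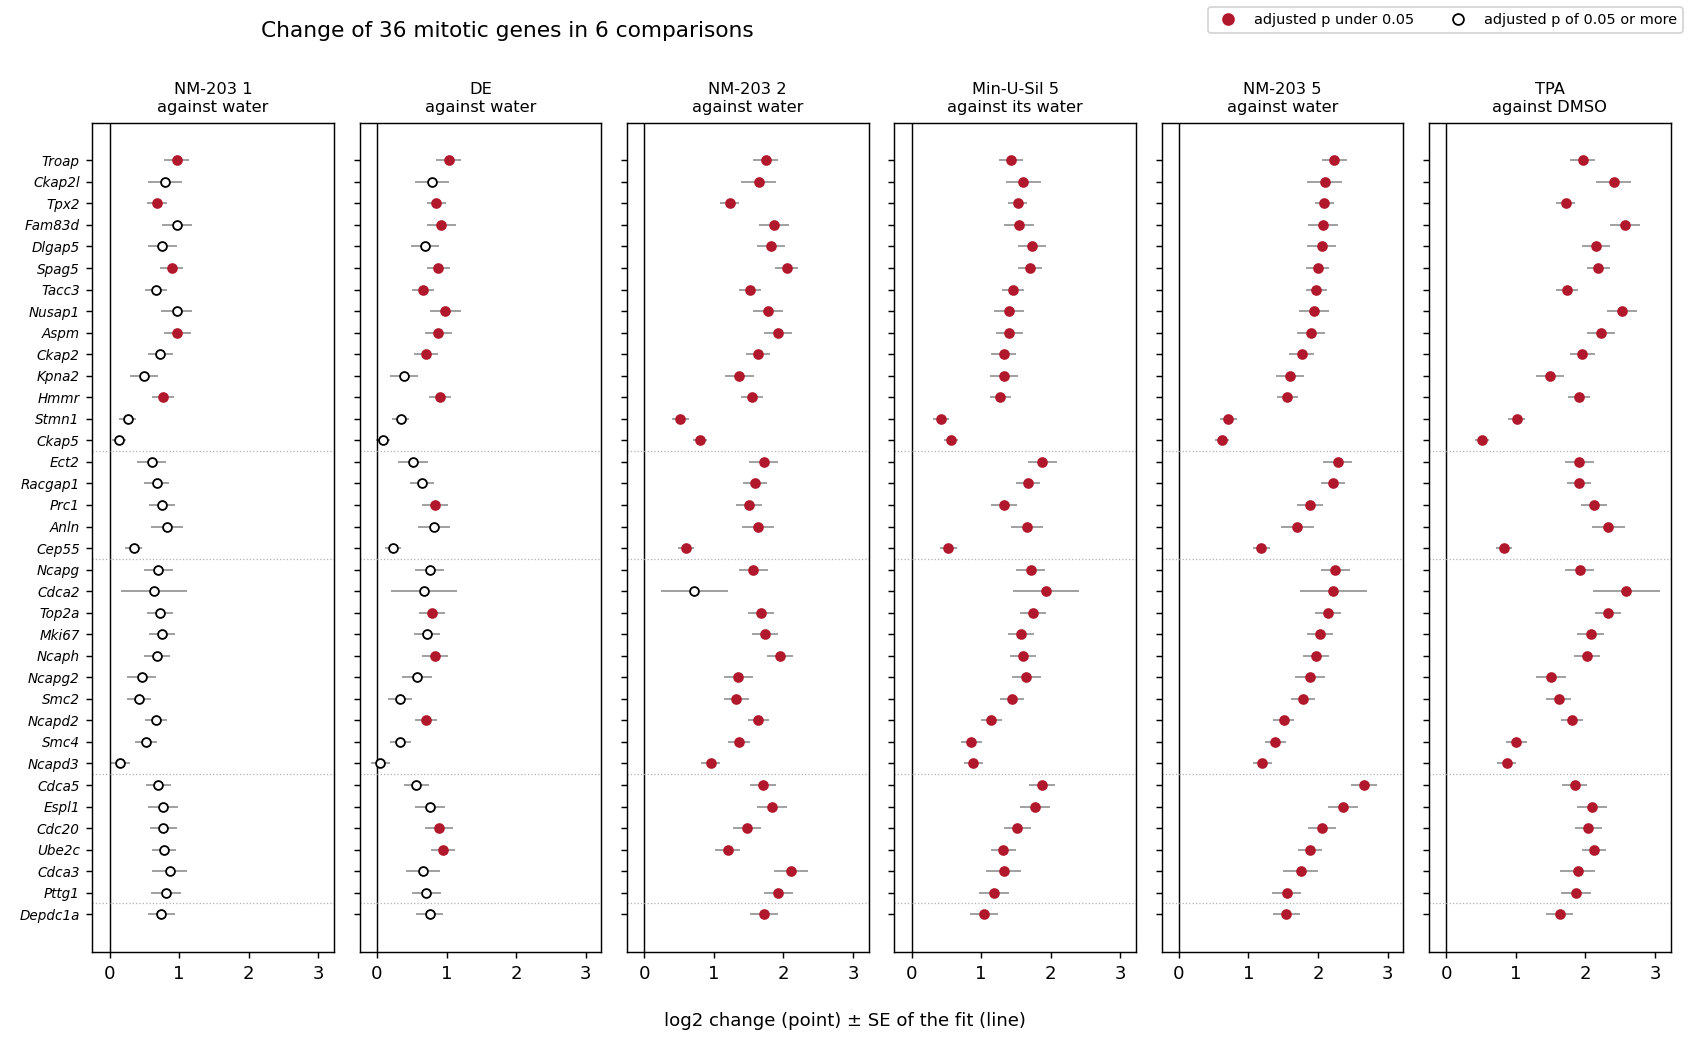
Log2 change of each gene (point) with the standard error of the fit (line) in 6 comparisons, 4 arrays per group; filled points have an adjusted p under 0.05. All points lie right of 0; Ckap5, Stmn1, Cep55 and Ncapd3 lie nearest to 0 in most panels.

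The spindle and microtubule genes gave all 5 calls at the lowest dose of NM-203. These were Aspm, the spindle pole protein mutated in microcephaly, Spag5 (astrin), which acts at spindle poles and kinetochores, Troap (tastin), Tpx2, the activator of Aurora A, and Hmmr, which anchors spindle poles. Aspm stood at -0.63, -0.72, -1.35 and -1.17 in water and at 0.50, -0.17, -0.10 and -0.20 after NM-203 at 1 µg/cm². The groups did not overlap, and Aspm was 1.97-fold higher (log2 change 0.97 ± 0.20, SE, n = 4 per group, limma adjusted p = 0.0447). The other changes were 0.89 for Spag5 (adjusted p = 0.0297), 0.96 for Troap (0.0297), 0.68 for Tpx2 (0.0447) and 0.76 for Hmmr (0.0447), all by limma. Some members that were not called changed more than Tpx2 and Hmmr: Fam83d by 0.97, Nusap1 by 0.96 and Cdca3 by 0.86. The median change was 0.76 for the spindle genes and 0.78 for the anaphase and cohesion genes, so the calls do not set the spindle role apart. With normexp and quantile normalization Troap changed by 0.57 and was not called (adjusted p = 0.18, limma). At 2 µg/cm² Aspm read 1.22, 1.17, 0.85 and 0.59, and at 5 µg/cm² 0.89, 0.58, 1.04 and 1.21. The latter groups overlapped each other and lay above the lowest dose.

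These 5 calls were the least firm of the counts. The number of members called after NM-203 at 1 µg/cm² was 15 without water replicate 1, 1 without water replicate 2, and 0 without water replicate 3 or 4. It was 0 without NM-203 1 replicate 1, 2 or 4 and 2 without replicate 3. All 36 members were above water in their means. An unadjusted p under 0.05 was found for 33 of them and for 5.74% of all genes. In 26 all 4 arrays lay above all 4 water arrays, where 2.16% of all genes did. Within slides 1, 2 and 3, where 1 treated array met 1 or 2 water arrays, the members' median change was 0.70, 0.94 and 0.92.

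Of the promoters, those of Aspm, Spag5, Hmmr and Troap are printed because these genes were called at the lowest dose. That of Ckap5 is printed because it moved least. RefSeq windows on GRCm38.p6 run from 250 bases before to 50 bases after the start and were found for 31 of the 36 genes (35 windows). No window was matched for Tpx2, Smc4, Cdca2, Dlgap5 or Stmn1. Capitals mark TTTGAA, the core of the cell cycle genes homology region to which Lin54 of MuvB binds, and CCAAT, the box bound by NF-Y, each on either strand (TTCAAA and ATTGG). Matches that overlap would both be counted. Windows lie at chr1:139454523-139454822 (Aspm, + strand), chr11:78301341-78301640 (Spag5, +), chr11:40733388-40733687 (Hmmr, -), chr15:99074723-99075022 (Troap, +) and chr2:91526512-91526811 (Ckap5, +), and sequences read 5′ to 3′ on the gene's strand.
Aspm: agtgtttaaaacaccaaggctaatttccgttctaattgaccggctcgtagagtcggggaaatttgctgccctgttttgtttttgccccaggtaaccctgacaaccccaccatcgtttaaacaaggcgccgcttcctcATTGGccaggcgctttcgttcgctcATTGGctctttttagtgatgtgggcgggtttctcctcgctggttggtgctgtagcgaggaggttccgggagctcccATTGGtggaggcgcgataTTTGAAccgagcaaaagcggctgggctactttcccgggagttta
Spag5: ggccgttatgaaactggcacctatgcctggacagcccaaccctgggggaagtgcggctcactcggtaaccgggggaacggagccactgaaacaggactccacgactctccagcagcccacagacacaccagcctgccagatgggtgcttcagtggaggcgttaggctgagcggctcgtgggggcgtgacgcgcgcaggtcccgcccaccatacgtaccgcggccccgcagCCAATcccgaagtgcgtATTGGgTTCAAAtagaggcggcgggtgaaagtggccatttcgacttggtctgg
Hmmr: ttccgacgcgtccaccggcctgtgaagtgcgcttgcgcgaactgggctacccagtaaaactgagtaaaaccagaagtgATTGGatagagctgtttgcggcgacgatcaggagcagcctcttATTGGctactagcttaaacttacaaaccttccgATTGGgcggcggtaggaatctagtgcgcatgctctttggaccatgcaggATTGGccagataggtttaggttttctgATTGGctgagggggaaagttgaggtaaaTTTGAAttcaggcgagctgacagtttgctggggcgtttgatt
Troap: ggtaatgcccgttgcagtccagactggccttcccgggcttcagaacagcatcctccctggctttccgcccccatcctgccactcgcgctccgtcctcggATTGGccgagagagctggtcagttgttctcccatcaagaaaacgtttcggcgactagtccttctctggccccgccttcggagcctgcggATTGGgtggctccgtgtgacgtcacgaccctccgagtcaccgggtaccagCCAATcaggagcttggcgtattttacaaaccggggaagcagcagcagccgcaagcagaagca
Ckap5: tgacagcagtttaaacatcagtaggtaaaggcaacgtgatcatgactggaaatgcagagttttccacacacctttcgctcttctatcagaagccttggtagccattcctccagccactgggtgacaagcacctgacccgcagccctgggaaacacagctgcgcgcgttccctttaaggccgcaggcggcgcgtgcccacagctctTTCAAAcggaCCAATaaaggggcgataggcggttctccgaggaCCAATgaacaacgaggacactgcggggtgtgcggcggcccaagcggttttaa

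In Aspm, Spag5 and Hmmr the TTTGAA match began 7, 4 and 9 bases from the start, with CCAAT matches upstream of it. Troap held 3 CCAAT and 0 TTTGAA matches. Ckap5, with the smallest change after NM-203 at 5 µg/cm², held 1 TTTGAA match at -45 and 2 CCAAT matches. A relation of the matches to the size of the change was not tested. Across the members TTTGAA stood in 29 of 35 windows (82.9%), against 17.9% of all 32851 windows of that length. Within 50 bases of the start the shares were 71.4% and 4.94%. CCAAT stood in 68.6% and 37.4%, and both motifs together in 65.7% and 6.95%. Of the other lists, mitotic kinases and kinesins had TTTGAA in 76.2% of 21 windows, paralogues of the members in 12.5% of 16, tubulins in 12.5% of 8 and anaphase-promoting complex genes in 15.8% of 19. Of the E2F sites searched, TTTCCCGC was found in 2 of the 35 windows (5.71%), against 1.07% of all. TTTGGCGC was found in 1 (2.86%), against 0.514% of all. TTTCGCGC and TTTGCCGC were found in 0, against 0.323% and 0.441% of all. A match is a description of letters and not a bound site, and the windows of Ect2, Prc1, Cep55 and Ncapd3 come in pairs of alternative starts.

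**Figure D3:**
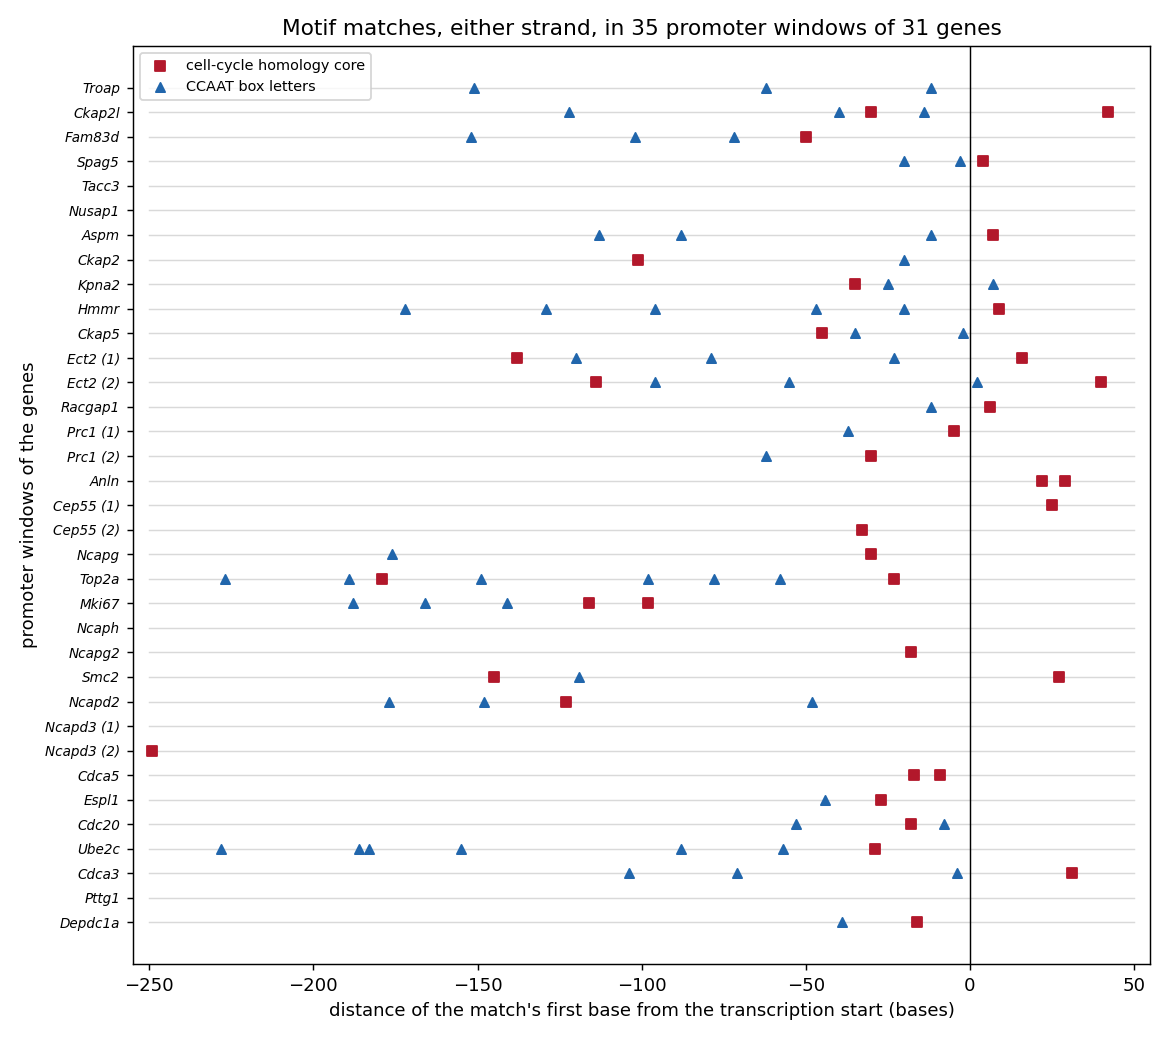
Position of each motif match relative to the transcription start (x axis, bases) in the 35 windows of 31 genes (rows, by role; numbers in brackets mark alternative starts); squares are TTTGAA and triangles CCAAT, either strand. Squares gather within 50 bases of the start; Troap, Tacc3, Nusap1, Ncaph and Pttg1 have no square.

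After NM-203 at 5 µg/cm² the 14 spindle genes had a median log2 change of 1.96. Troap changed most. It read -3.56, -3.77, -3.69 and -3.78 in water, -1.24, -1.65, -1.31 and -1.68 after NM-203 at 5 µg/cm², and -2.43, -2.87, -2.48 and -2.88 after DE. The 3 groups did not overlap, and the rise over water was 4.69-fold (log2 2.23 ± 0.18, SE, n = 4 per group, limma adjusted p = 3.38e-11). With normexp and quantile normalization the log2 change of Troap was 1.47 and that of Dlgap5 1.32, both still called. Tpx2 rose 4.26-fold, with the smallest adjusted p of the members in this comparison (1.17e-12, limma), and Ckap2l, a spindle protein of neural progenitors, 4.27-fold. Dlgap5 (HURP), which stabilises kinetochore fibres, rose 4.14-fold, Fam83d, which brings casein kinase 1 to the spindle, 4.21-fold, and Tacc3, the partner of Ckap5 on spindle microtubules, 3.94-fold. Nusap1, which bundles microtubules, rose 3.83-fold, and Ckap2 3.40-fold.

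The smallest changes of the role belonged to Ckap5 (ch-TOG), a microtubule polymerase, and Stmn1, which destabilises microtubules. Both also act in interphase. Ckap5 read 2.06, 2.04, 1.92 and 2.04 in water and 2.70, 2.52, 2.65 and 2.65 after NM-203 at 5 µg/cm², a 1.53-fold rise (adjusted p = 8.27e-06, limma). At 1 µg/cm² it read 2.25, 2.01, 2.12 and 2.20 and overlapped water. At 2 µg/cm² it read 2.85, 3.08, 2.73 and 2.60, with 3 of 4 arrays above every array at 5 µg/cm². After TPA it rose 1.43-fold (adjusted p = 0.000493, limma), and the adjusted p was 0.0666 with arrays scaled on their median. Stmn1 rose 1.64-fold after NM-203 at 5 µg/cm² and 2.02-fold after TPA. Its smaller rises were less firm: after Min-U-Sil 5 (1.34-fold, limma adjusted p = 0.00913) the adjusted p was 0.0512 without Min-U-Sil 5 water replicate 3, 0.0525 without Min-U-Sil 5 replicate 3, 0.193 with median scaling and 0.0804 with the compared groups alone. Its rise at 2 µg/cm² of NM-203 (1.43-fold, limma adjusted p = 0.0022) had adjusted p-values of 0.10 and 0.0579 under the latter settings. Kpna2, the importin that carries Tpx2 and releases it near chromatin, rose 3.03-fold after NM-203 at 5 µg/cm².

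TPA gave the role its largest single change. Fam83d read -3.21, -2.70, -2.47 and -2.80 in DMSO and -0.19, -0.57, -0.22 and 0.08 after TPA, a 5.95-fold rise (log2 2.57 ± 0.21, SE, n = 4 per group, adjusted p = 6.27e-10, limma). Nusap1 read -1.24, -0.76, -0.73 and -0.78 in DMSO and 1.56, 1.37, 1.78 and 1.88 after TPA, 5.75-fold higher. The TPA and DMSO arrays were far apart for both genes. DE raised 9 of the 14 spindle genes, where 0.557% of all genes rose. Troap (2.05-fold, adjusted p = 0.00217, limma), Nusap1 (1.98-fold) and Fam83d (1.90-fold) led, while Ckap5 stood at 1.06-fold (adjusted p = 0.845, limma). With normexp and quantile normalization Troap changed by 0.55 after DE (adjusted p = 0.0787, limma) and Fam83d by 0.70 (0.0868), and neither was called.

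**Figure D4:**
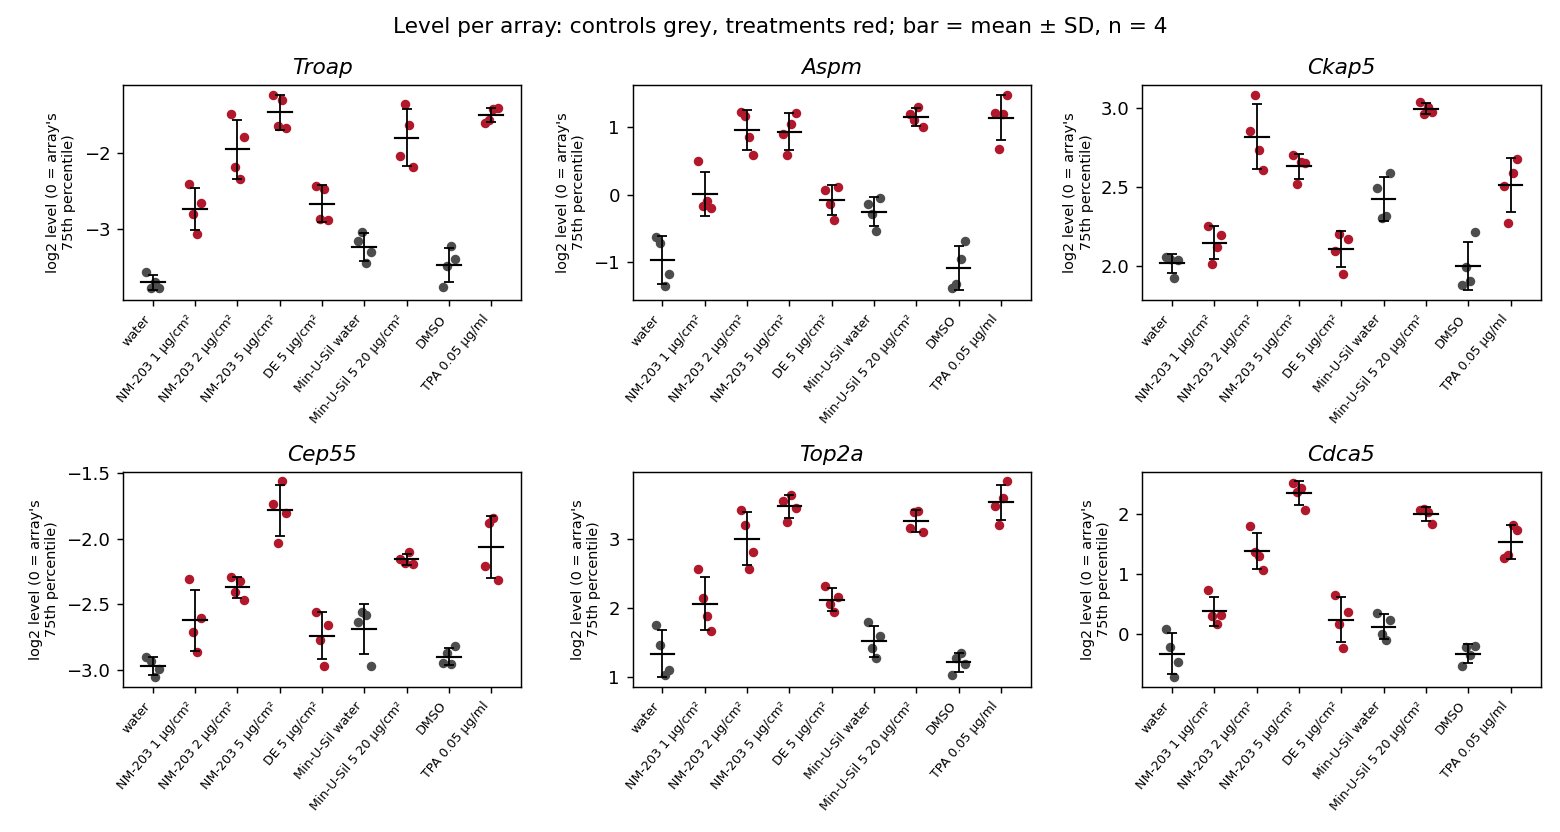
Log2 level (y axis, 0 = the array's 75th percentile) of 6 genes on every array by group (x axis); controls grey, treatments red, bar = mean ± SD, n = 4. Cdca5 is highest after NM-203 5 µg/cm², with arrays from 2.06 to 2.51, while Ckap5 moves over a narrow range and Aspm is alike at 2 and 5 µg/cm².

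All 5 cytokinesis genes rose after TPA (4.89% of all genes), Min-U-Sil 5 (11.6%) and NM-203 at 2 and 5 µg/cm² (16.2% and 14%). Ect2, the exchange factor that switches on RhoA at the cell's equator, read -0.10, -0.23, -0.77 and -0.37 in water, 0.54, 0.15, -0.38 and 0.31 after DE, and 1.88, 1.86, 2.17 and 1.75 after NM-203 at 5 µg/cm². DE overlapped water and NM-203 did not: the rises were 1.43-fold (adjusted p = 0.325) and 4.86-fold (adjusted p = 4.25e-10, both limma). Ect2 was also 3.39-fold higher after NM-203 than after DE at the same mass dose (adjusted p = 7.46e-08, limma). Its partner Racgap1, the centralspindlin subunit that recruits Ect2, rose 4.64-fold over water and Prc1, which cross-links midzone microtubules, 3.70-fold. Prc1 was the one cytokinesis gene called after DE (1.79-fold, adjusted p = 0.0217, limma).

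Anln, an actin and septin scaffold of the furrow, read 1.00, 1.17, 1.69 and 1.32 in DMSO and 3.52, 3.37, 3.66 and 3.95 after TPA. Its 5.03-fold rise was the largest of the role under TPA, and it was 3.26-fold after NM-203 at 5 µg/cm². Cep55, which recruits the abscission machinery to the midbody, had the smallest change in each of the 6 comparisons. It read -2.90, -2.93, -3.05 and -2.99 in water and -1.74, -2.03, -1.57 and -1.80 after NM-203 at 5 µg/cm², 2.27-fold higher and without overlap. A second, dimmer Cep55 probe gave a larger log2 change, 2.54 ± 0.48 after NM-203 at 5 µg/cm² and 2.15 ± 0.48 after TPA, where the brighter gave 1.18 ± 0.12 and 0.83 ± 0.12. The 2 probes shared their direction and calls in these comparisons but not their size. At 2 µg/cm² the rise of Cep55 (1.51-fold, adjusted p = 0.000401, limma) had an adjusted p of 0.0785 with scan day in the fit and 0.0673 against the Min-U-Sil 5 water.

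The contractile ring and abscission list held 14 measured genes that are not members. NM-203 at 5 µg/cm² raised 5 and lowered 4 of them, against 14% and 19.1% of all genes, with a median change of 0.01. Cit, the citron kinase of the midbody, rose most (log2 1.74 ± 0.19, adjusted p = 1.0e-08, limma), and the myosin Myh10 fell by 0.54 (adjusted p = 0.00195, limma). Of 10 measured tubulins 7 rose, with Tubb6 at 1.47 and Tubg1 at 1.20, against 0 after DE and 6 after TPA. Of all genes, 0.557% rose after DE and 4.89% after TPA.

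The 10 condensation genes hold the 5 subunits of condensin I (Smc2, Smc4, Ncaph, Ncapd2 and Ncapg) and 2 subunits of condensin II (Ncapg2 and Ncapd3). All 10 rose after TPA (4.89% of all genes), Min-U-Sil 5 (11.6%) and NM-203 at 5 µg/cm² (14%). The count was 9 after NM-203 at 2 µg/cm² (16.2%) and 3 after DE (0.557%). Ncapg, a condensin I subunit, read 0.69, 0.30, 0.07 and 0.21 in water and 2.50, 2.31, 2.81 and 2.62 after NM-203 at 5 µg/cm². It was 4.74-fold higher with no overlap (log2 2.25 ± 0.21, SE, n = 4 per group, adjusted p = 6.13e-10, limma). Smc2 and Smc4, the ATPases that both condensins share, rose 3.45-fold and 2.61-fold. Ncapd3, a condensin II subunit, had the smallest change. It read -1.15, -1.11, -1.17 and -1.24 in water, -1.04, -1.22, -1.23 and -0.99 after DE, and 0.11, -0.14, 0.12 and 0.02 after NM-203 at 5 µg/cm². DE and water overlapped (1.03-fold, adjusted p = 0.951), and NM-203 was 2.29-fold above water (adjusted p = 2.52e-08, both limma).

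Members were set against relatives that do not belong to the list or that serve the other condensin, in 15 pairs and 6 comparisons, by an exact permutation test (two-sided) of the difference between the 2 genes, 4 arrays against 4. The pairs were chosen with the values known, so their p-values describe contrasts already seen. The smallest p this design allows is 0.0286, which becomes 0.0422 after Benjamini-Hochberg adjustment over the 90 tests. After NM-203 at 5 µg/cm², 14 of the 15 differences reached it, and 14 after TPA. In both treatments these include Depdc1a, which changed less than its relative, while in the others the member changed more. The count was 13 after Min-U-Sil 5, where Depdc1a again changed less than its relative. It was 11 and 5 after NM-203 at 2 and 1 µg/cm², and 4 after DE. Some members stand in several pairs, so the pairs are not independent. Relatives also moved: of 20 measured paralogues of members, 11 rose and 0 fell after NM-203 at 5 µg/cm² (median log2 change 0.58). Among all genes, 14% rose and 19.1% fell. For Top2a, the topoisomerase II of dividing cells, the log2 change was 2.14 after NM-203 at 5 µg/cm² and 2.33 after TPA, and for its constitutive relative Top2b -0.29 and -0.30 (exact permutation p = 0.0286, adjusted 0.0422, for both treatments). The kleisin Ncaph of condensin I changed by 1.98 and 2.03, and Ncaph2 of condensin II by 0.65 and 0.69, with the same exact permutation p.

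The other condensin pairs differed less. Ncapg and Ncapg2 changed by 2.25 and 1.89 after NM-203 at 5 µg/cm² (exact permutation p = 0.0286) and by 1.71 and 1.65 after Min-U-Sil 5 (exact permutation p = 0.40). After TPA they changed by 1.92 and 1.51 (exact permutation p = 0.0571). Ncapd2 and Ncapd3 changed by 1.50 and 1.20 after NM-203 (exact permutation p = 0.0571) and by 1.81 and 0.87 after TPA (exact permutation p = 0.0286). The cohesin ATPases Smc1a and Smc3 changed by 0.19 and 0.49 after NM-203 at 5 µg/cm², below Smc2 and Smc4 in each of the 4 pairs. Tacc1 and Tacc2 changed by -0.29 and -0.18, where Tacc3 changed by 1.98. Kpna1, Kpna3, Kpna4 and Kpna6 changed by 0.73, 0.93, 0.73 and 0.08, where Kpna2 changed by 1.60. Depdc1a was the exception: it changed by 1.54, less than its relative Depdc1b at 2.28.

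The windows of the topoisomerase pair are shown because its members moved apart. They lie at chr11:99024140-99024439 (Top2a, - strand) and chr14:16364956-16365255 (Top2b, + strand), GRCm38.p6, from RefSeq, with TTTGAA and CCAAT matches of either strand in capitals.
Top2a: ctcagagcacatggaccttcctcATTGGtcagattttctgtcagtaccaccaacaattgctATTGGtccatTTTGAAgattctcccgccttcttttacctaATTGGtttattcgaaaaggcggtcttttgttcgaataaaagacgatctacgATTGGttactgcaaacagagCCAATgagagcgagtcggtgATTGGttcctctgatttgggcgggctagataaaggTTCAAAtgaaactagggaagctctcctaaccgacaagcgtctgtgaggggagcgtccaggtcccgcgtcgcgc
Top2b: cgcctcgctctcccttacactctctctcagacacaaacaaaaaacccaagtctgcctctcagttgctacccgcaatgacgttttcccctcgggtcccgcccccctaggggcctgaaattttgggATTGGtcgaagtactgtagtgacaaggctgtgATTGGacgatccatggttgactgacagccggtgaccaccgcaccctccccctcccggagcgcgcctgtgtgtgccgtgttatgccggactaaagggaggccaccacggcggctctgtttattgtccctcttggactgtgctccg
Top2a held 2 TTTGAA matches, at -179 and -23, and 6 CCAAT matches. The Top2b window printed here held 0 and 2, and matches in any other Top2b window are not given.

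Mki67 (Ki-67), which coats mitotic chromosomes and marks cycling cells in pathology, rose 4.07-fold after NM-203 at 5 µg/cm², 4.21-fold after TPA and 2.99-fold after Min-U-Sil 5. After DE it stood at 1.65-fold (adjusted p = 0.0568, limma), and the groups did not overlap. Cdca2 (Repo-Man), which brings protein phosphatase 1 to anaphase chromatin, was the one member not called after NM-203 at 2 µg/cm² (1.65-fold, adjusted p = 0.28, limma). Its 4 arrays there read -1.13, -4.80, -1.76 and -1.74, with water at -2.52, -2.89, -3.38 and -3.51. Replicate 2 alone lay below water, and the spot was well above background on 3 of the 4 arrays. Without that replicate 36 members were called. Of 3 dimmer Cdca2 probes, 2 were called in this comparison, with a log2 change of up to 2.03. Against DMSO, where replicate 2 stood at -4.90 and the others at -3.14, -3.03 and -3.71, TPA raised Cdca2 6.02-fold (log2 2.59 ± 0.48). The DMSO spot was well above background on 3 of the 4 arrays. Without DMSO replicate 2 the change was 2.19, below those of Fam83d (2.61) and Nusap1 (2.56).

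The 6 genes grouped under anaphase control and cohesion rose in step with the other roles. All 6 were called after TPA (4.89% of all genes rose), Min-U-Sil 5 (11.6%) and NM-203 at 2 and 5 µg/cm² (16.2% and 14%). Cdca5 (sororin), which protects cohesin from removal until anaphase, had the largest change of the 36 after NM-203 at 5 µg/cm². It read 0.08, -0.21, -0.71 and -0.46 in water, 0.66, 0.17, -0.23 and 0.36 after DE, and 2.51, 2.35, 2.42 and 2.06 after NM-203 at 5 µg/cm². It was 6.33-fold above water (log2 2.66 ± 0.18, SE, n = 4 per group, adjusted p = 1.81e-12, limma) and 4.28-fold above DE, and the NM-203 arrays stood clear of both. Min-U-Sil 5 arrays of Cdca5 read 2.05, 2.08, 2.03 and 1.83 against 0.35, 0.01, -0.11 and 0.24. The window of Cdca5 at chr19:6084847-6085146 (+ strand, GRCm38.p6, RefSeq) is shown for its paired match, with TTTGAA in capitals.
Cdca5: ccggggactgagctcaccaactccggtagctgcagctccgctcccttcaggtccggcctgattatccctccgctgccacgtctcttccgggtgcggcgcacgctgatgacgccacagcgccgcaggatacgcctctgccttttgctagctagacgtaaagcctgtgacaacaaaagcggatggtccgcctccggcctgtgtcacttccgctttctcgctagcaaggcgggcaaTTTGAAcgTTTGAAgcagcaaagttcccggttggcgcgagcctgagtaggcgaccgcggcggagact
Both TTTGAA matches lie just before the start, at -17 and -9, and it held 0 CCAAT matches.

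Espl1 (separase), which cuts cohesin, rose 5.11-fold after NM-203 at 5 µg/cm², and Pttg1 (securin), which holds separase in check, 2.93-fold. Pttg1 read 2.38, 1.91, 1.66 and 1.42 in water, 4.19, 4.24, 3.64 and 3.02 at 2 µg/cm² and 3.43, 3.03, 3.55 and 3.56 at 5 µg/cm². Its level at 2 µg/cm² overlapped that at 5 µg/cm². Cdc20, the activator of the anaphase-promoting complex, rose 4.16-fold at 5 µg/cm² and Ube2c, its ubiquitin-conjugating enzyme, 3.70-fold. These 2 were the genes of the role that DE raised, 1.85-fold (adjusted p = 0.0218) and 1.93-fold (adjusted p = 0.00427, both limma). DE raised 0.557% of all genes. Cdca3, an adaptor that promotes mitotic entry and was grouped with this role, had the largest change of the 36 members at 2 µg/cm², 4.31-fold.

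Core subunits of the complex moved less. Of 17 measured genes of the anaphase-promoting complex and its inhibitor, 8 rose and 1 fell after NM-203 at 5 µg/cm². Of all genes, 14% rose and 19.1% fell. The median log2 change of the 17 was 0.25. Fbxo5 (Emi1), the inhibitor, rose by 2.25 ± 0.17 and Anapc15 by 0.85, Ube2s rose 2.15-fold, and Anapc13 fell by 0.38 on the log2 scale. Of 13 measured cohesin genes and regulators 6 rose, with a median of 0.28: Sgo1 (shugoshin) by 2.61 and the acetyltransferase Esco2 by 2.42 stood far above the ring subunit Rad21 at 0.55. After DE 0 of both lists passed the test, where 1.01% of all genes did.

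The transcriptional regulators of these genes were measured too. Of 12 DREAM and MuvB genes 7 rose and 1 fell after NM-203 at 5 µg/cm², against 14% and 19.1% of all genes. Mybl2 (B-Myb) rose by 2.84 ± 0.17 (adjusted p = 1.08e-13, limma), Foxm1 by 2.16 and the MuvB subunits Lin9 by 1.90 and Lin54 by 1.17. The pocket protein Rbl1 (p107) rose by 1.64 and Rbl2 (p130), which represses these genes in resting cells, fell by 0.84. After TPA 5 rose and 0 fell, against 4.89% and 6.78% of all genes, with Foxm1 at 1.56 and Mybl2 at 1.37. Rbl2 changed by 0.37. Of 25 mitotic kinases, passenger proteins and kinesins, 25 rose after NM-203 at 5 µg/cm² (median 2.03), where 14% of all genes did. TPA and Min-U-Sil 5 also raised 25 each, against 4.89% and 11.6% of all genes. The count was 24 after NM-203 at 2 µg/cm² (16.2% of all genes), 12 after DE (0.557%) and 5 after NM-203 at 1 µg/cm² (0.0431%).

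The members were then compared between treatments. NM-203 and DE, both at 5 µg/cm², differed for all 36 members, higher after NM-203, where 14% of all genes were higher, 15.2% lower and 29.2% called in all, with a median log2 difference of 1.15 (0.37 to 2.10). In all 36 the NM-203 arrays lay above the DE arrays, as in 13.8% of all genes. On slides 1 and 3, which held both groups, the median difference was 1.03 and 1.04. The smallest difference was that of Stmn1 (1.29-fold, adjusted p = 0.0216, limma), whose adjusted p was 0.0594, 0.0825, 0.0544 and 0.0506 without NM-203 5 replicate 3, NM-203 5 replicate 4, DE replicate 2 and DE replicate 3. It was 0.256 with normexp and quantile normalization (log2 difference 0.22 in place of 0.37), 0.0933 with median scaling and 0.0549 with the compared groups alone. Cdca2 (adjusted p = 0.0129, limma) gave 0.0528 without DE replicate 2. The DE calls themselves varied: 15 members were called against water, and 5 without water replicate 3, without water replicate 4 or without DE replicate 1. The median change after DE on slides 1, 2 and 3 was 1.13, 0.53 and 0.85.

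The changes after NM-203 at 5 µg/cm² and after TPA, each against its own control, differed for 1 of the 36 members, where 7.74% of all genes had the larger change after NM-203 and 7.06% the larger after TPA (14.8% in all). This was Cdca5, whose change was 2.66 after NM-203 and 1.85 after TPA, a difference of 0.82 ± 0.26 (SE, adjusted p = 0.0295, limma). It was lost without water replicate 3 or 4, NM-203 5 replicate 1 or 3, DMSO replicate 2 or 4, or TPA replicate 1 or 2, and with arrays scaled on the median (adjusted p = 0.133). Over the 36 members the median difference was -0.07, which ran from -0.15 to 0.04 when 1 array was left out (0.04 without water replicate 1), from -0.63 (Anln) to 0.82. The 95% interval of the difference included 0 for 34 members and lay within -1 and 1 for 30, with half-widths from 0.29 to 1.38, the widest that of Cdca2. Cep55 (0.35 ± 0.17, adjusted p = 0.194, limma) was the other whose interval excluded 0.

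**Figure D5:**
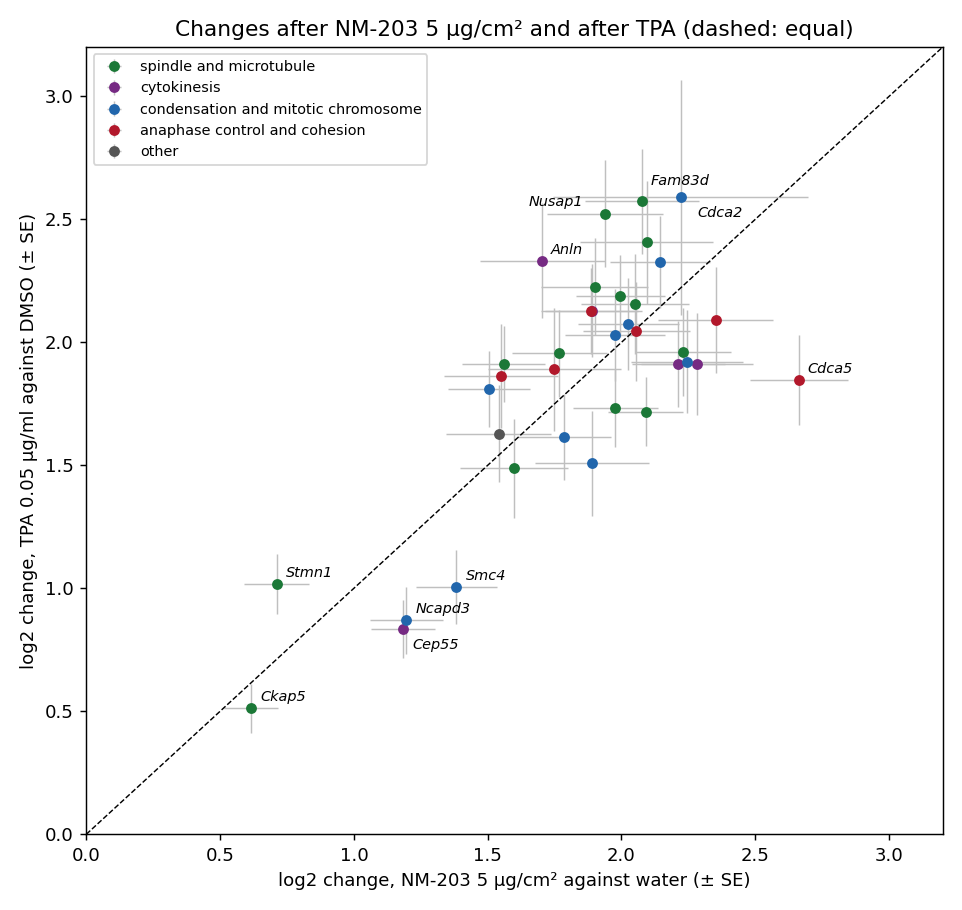
Log2 change after NM-203 5 µg/cm² against water (x axis) and after TPA against DMSO (y axis) for each of the 36 genes, coloured by role, with SE of the fit; the dashed line marks equal changes. Most points lie near the line between 1.5 and 2.5 on both axes; Cdca5 lies furthest to its right.

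Across the 3 doses of NM-203, 29 of the 36 members had a larger change at 5 than at 2 µg/cm². Both use the same water arrays, and slide and day differ between the doses, so this order was not tested. For NM-203 at 2 µg/cm², no array shared a slide or day with water. With scan day as a term in the fit 34 members were called and the median was 1.76. Against the Min-U-Sil 5 water arrays, scanned on the same day, 34 were called and the median was 1.20. In the main comparison, of NM-203 at 2 µg/cm² with its own water, the median of all genes was 0.11. Min-U-Sil 5 had medians of 1.60 and 1.40 on slides 4 and 5, each slide with 2 water arrays beside 3 treated arrays on slide 4 and 1 on slide 5. Without slide 4, 31 members were called. That fit has 1 treated array, which is assumed to vary like the arrays of the other groups. TPA had a median of 1.80 on slide 1, the one slide it shared with DMSO, and NM-203 at 5 µg/cm² 2.26 and 1.91 on slides 1 and 3.

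Markers of cell identity moved with the same treatments. Of 10 fibroblast markers 7 fell after NM-203 at 5 µg/cm², led by Col3a1 (-1.73), 7 after Min-U-Sil 5, led by Fap (-1.95), 2 after TPA, 4 after NM-203 at 2 µg/cm² and 0 after DE or NM-203 at 1 µg/cm². Of all genes, 19.1% fell after NM-203 at 5 µg/cm², 13.9% after Min-U-Sil 5, 6.78% after TPA and 8.86% after NM-203 at 2 µg/cm². After DE 0.449% fell, and 0.0431% after NM-203 at 1 µg/cm². The summed linear level of the fibroblast markers, relative to the 75th percentile, was 844 to 960 in water. It was 553 to 753 after NM-203 at 5 µg/cm². In the same 2 groups the level was 19.8 to 28.5 and 16.0 to 21.4 for macrophage markers and 0.310 to 0.360 and 0.200 to 0.275 for epithelial markers. For endothelial markers it was 0.311 to 0.387 and 0.176 to 0.272. The part of these shifts in the members' changes was not tested.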

How the data were processed

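RNA of 36 samples was measured on 1-colour (Cy3) Agilent mouse arrays. The deposited scanner files hold intensity values that the authors read with Agilent Feature Extraction 11.0.1.1, per the submitters' processing notes; these are background-subtracted processed signals, per the file headers. A deposited table of log2 values of the same arrays, whose scaling is not given in the sources used here, served as an alternative; 33 arrays matched their own column best, and 3 Min-U-Sil 5 arrays matched another column of their group.

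From the processed signals, log2 values were taken and each array's 75th percentile subtracted. Control and outlier spots were left out and spots of a probe averaged. Probes were named by accession through a RefSeq table (GRCm38.p6), which named 32994 of 56605 probes. A probe was kept where at least 3 arrays of some group gave a signal well above background, and the brightest probe stood for its gene. A model of 9 group means was fitted with limma 3.58.1 (lmFit, eBayes; R 4.3.3, the data.table package, version 1.17.8), with Benjamini-Hochberg adjustment over 32489 genes and a threshold of 0.05. Folds are 2 to the power of the log2 change. Pairs of relatives, motifs and figures were computed in Python 3.11.15 (scipy 1.17.1, statsmodels 0.14.6, pandas 2.3.3, matplotlib 3.10.9). The fit was tested on simulated data.

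The members, lists and pairs were chosen with earlier results of these data known. All members could be named. Array values were given for at most 3 members of a role in a comparison, those with the largest and the smallest change. Outside that rule, and chosen after their values were seen, are the array values of Aspm at 2 and 5 µg/cm² and of Ckap5 and Pttg1 at 2 µg/cm² of NM-203, and of Ect2 after DE. Of other lists, up to 4 genes with the largest change after NM-203 at 5 µg/cm² were named, with any called against its list's direction, and regulators and relatives freely. Alternatives were other background corrections, scalings, filters and probe rules, slide, scan day or replicate number in the fit, array weights, the deposited table, another control and leaving out each array. The number of arrays limits the precision.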

Additional observations from a re-analysis of the deposited data

Results flagged for a closer look

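In 324 sets of 4 arrays (36 genes, 9 groups), 15 had an array set apart from the other 3 by Dixon's criterion, and chance sets apart about 1 in 20. Replicate 1 of NM-203 at 1 µg/cm² accounted for 6 of them, each time above the others: Aspm (0.50), Hmmr (0.82), Cdca2 (-1.89), Cdca3 (2.19), Dlgap5 (-2.40) and Kpna2 (4.77), as log2 levels. Above their groups stood also Prc1 in NM-203 2 µg/cm² replicate 1 (2.82) and Racgap1 in NM-203 5 µg/cm² replicate 3 (3.56). Below their groups stood Spag5 (0.17) and Smc4 (3.82) in NM-203 5 µg/cm² replicate 2, Nusap1 in DMSO replicate 1 (-1.24) and Ckap5 in water replicate 3 (1.92). The same held for Tpx2 in replicate 1 (1.93), Racgap1 in replicate 3 (3.19) and Kpna2 in replicate 4 (5.40) of Min-U-Sil 5. The median level of the 36 genes was low in DMSO replicate 1 (-0.18), with the other DMSO arrays at 0.07 to 0.09. Cdca5 differed between treatments: its log2 change was larger after NM-203 at 5 µg/cm² than after TPA by 0.82.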

How the results depend on the processing

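No member called in a comparison changed direction in any alternative run, while the members' median difference between NM-203 at 5 µg/cm² and TPA, reported as -0.07, was 0.01 with median scaling and ran from -0.15 to 0.04 with 1 array left out. The counts of members called after TPA, Min-U-Sil 5 and both higher doses of NM-203 stayed within 1.5 times of those reported in each alternative, and the smaller counts did not. For NM-203 at 1 µg/cm² (5 called), 0 were called with median scaling of the arrays, with no filter on dim probes or with only the compared groups in the fit. The count was 1 with the mean of a gene's probes, 2 with the deposited table, 14 and 13 with slide as a fixed and a random block, 26 with array weights, and 1 without slide 4, an alternative chosen after seeing the data. For DE (15 called), 0 were called with median scaling or only the compared groups, and 24 with array weights. For the difference between NM-203 at 5 µg/cm² and TPA (1 called), the count was 0 with median scaling or slide as a fixed block and 2 with array weights. The members' median change after NM-203 at 2 µg/cm² was 1.36 with normexp and quantile normalization, 1.90 with slide as a fixed block and 1.20 against the Min-U-Sil 5 water; with normexp and quantile normalization it was 1.67 after NM-203 at 5 µg/cm². Leaving out 1 array gave 5 to 21 calls for DE, 0 to 1 for the difference from TPA and 0 to 15 for the lowest dose of NM-203. The cause of these shifts was not tested.

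Replicate numbers did not pair the arrays consistently. Over all genes, deviations of same-numbered arrays from their group means correlated at -0.60 to 0.33 between compared groups. The best match in the other group carried the same number for 0 to 2 of 4 arrays. The members' median was highest in replicate 1 of water, of NM-203 at 1 and 2 µg/cm² and of DE, but of no other group. A shared experiment behind equal numbers was therefore not settled. With the replicate number as a block the counts were 5, 35, 36, 16, 36 and 36 for the 3 rising doses of NM-203, DE, Min-U-Sil 5 and TPA, 36 for NM-203 against DE and 1 for the difference from TPA. Over 5357 values of single members, 178 lost and 85 gained their call.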
